A study of Tribolium castaneum with 8 samples.

Results

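The genes described here are those of DNA replication and the cell cycle in the red flour beetle Tribolium castaneum. They are all genes whose protein description or KEGG orthology field in the deposited tables names minichromosome maintenance, DNA replication, origin recognition, a DNA polymerase, a replication factor, a cyclin, cell division cycle or control, the proliferating cell nuclear antigen, aurora, polo-like or the anaphase-promoting complex. Of 14422 genes listed in at least 1 library, 291 met this rule, 43 through the protein description and 248 through the KEGG field alone. The KEGG field lists weak and lower-ranked matches too, so the rule is wide. By name, 100 of the 291 have a role in replication or the cell cycle or belong to the same families, namely 37 S-phase members, 28 mitotic members, 7 members of the G1 machinery, 10 repair, mitochondrial or MCM-related members, 12 cyclins and kinases of transcription and 6 other cyclin-dependent kinases and their partners. The other 191 have another name or matched only through a weak or lower-ranked hit, and 67 of them were below 1 RPKM in every library. RPKM is the read count scaled by the length of the gene model and the depth of the library.

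A cell copies its DNA once per division. The origin recognition complex (ORC), CDC6 and CDT1 load the ring-shaped MCM helicase on origins, CDC45 and GINS switch it on, and polymerases alpha, delta and epsilon then copy the strands behind it, held by the PCNA clamp and with single strands covered by replication protein A (RPA). Mitosis is started by CDK1 with cyclins A and B, carried on by Aurora and Polo kinases, and ended when the anaphase-promoting complex (APC) marks the cyclins for destruction. In insects many larval tissues grow by endoreplication, in which cells repeat S phase without dividing, while embryos and imaginal tissues grow by mitotic division.

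The series holds polyadenylated RNA from whole bodies of the strain GA-1, reared in whole wheat flour with yeast, with 1 library per stage: 3-day embryos, larvae of about 20 days, 3-day pupae and 3-day adults. A pool of individuals is stated for the DNA samples of the series, and how many animals gave each RNA sample is not stated. The libraries held 3.24 M, 3.58 M, 3.67 M and 3.09 M unique reads in that order. The share of reads in the 291 members was 1.33%, 0.730%, 1.02% and 1.15%. No difference between stages can be set against replicates, since each stage has a single library, and no p-value is given. All intervals are 95% counting intervals, and a difference between 2 libraries may be one between the animals or batches and not between stages.

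Most genes stood lower in RPKM in the larval library than in the embryonic. Over all genes that reached 1 RPKM in either library of a pair, the median log2 ratio of (RPKM + 1) was -0.62 for larva against embryo, 0.43 for pupa against larva and -0.09 for adult against pupa. Hexamerins and arylphorin, 6 storage proteins of the larval fat body, took 11.8% of the larval reads and at most 0.458% of the reads of any other library. Median-ratio rescaling, which sets the libraries to a common median gene, multiplied every larva-to-embryo ratio by 1.56, every pupa-to-larva ratio by 0.729 and every adult-to-pupa ratio by 1.17. Directions below are in RPKM unless rescaling is named, and are set beside the median of all genes or taken within a library where possible.

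S-phase and mitotic members parted in the larval library. From embryo to larva the median log2 ratio was -0.12 over 36 S-phase members and -0.92 over 27 mitotic members, which is 0.51 above and 0.30 below the median of all genes. From larva to pupa the order turned, with -0.34 over 37 S-phase members and 0.51 over 28 mitotic members, 0.78 below and 0.08 above all genes. From pupa to adult the medians were 0.14 and -0.03, 0.24 and 0.07 above all genes. The gap between the S-phase and mitotic medians was thus 0.81, -0.85 and 0.17 at the 3 steps, and the first 2 of these share the larval library. RNA of whole bodies cannot tell fewer cells of a type from less RNA per cell.

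Members at least 2-fold apart were counted, provided that either library of the pair reached 1 RPKM. Against the embryo, 1 S-phase member was higher in the larva and 3 were lower, where 18.6% of all genes tested were higher and 34.2% lower. No mitotic member was higher and 11 of 27, or 40.7%, were lower, which is near that background. Of the 291 members 201 passed the filter, and 5 of these were higher and 71 lower, or 2.49% and 35.3%. On the rescaled values 11 S-phase members were at least 2-fold higher in the larva, 1 was lower, and 4 mitotic members were lower.

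From larva to pupa 22.7% of all genes were higher and 14.2% lower. Of the S-phase members 2 were higher and 4 lower, and of the mitotic members 3 were higher and 0 lower. The 4 lower S-phase members were PCNA, ORC5 and both models of MCM2. Of the 199 members that passed the filter 30 were higher and 7 lower, or 15.1% and 3.52%. On the rescaled values 13 S-phase members were lower, and 19 members with any name were higher and 19 lower. From pupa to adult 22.8% of all genes were higher and 15.6% lower. Of the S-phase members 2 were higher and 0 lower, of the mitotic members 5 were higher and 0 lower, and of the 214 members that passed the filter 36 were higher and 11 lower. After rescaling 4 S-phase members were higher.

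**Figure D1:**
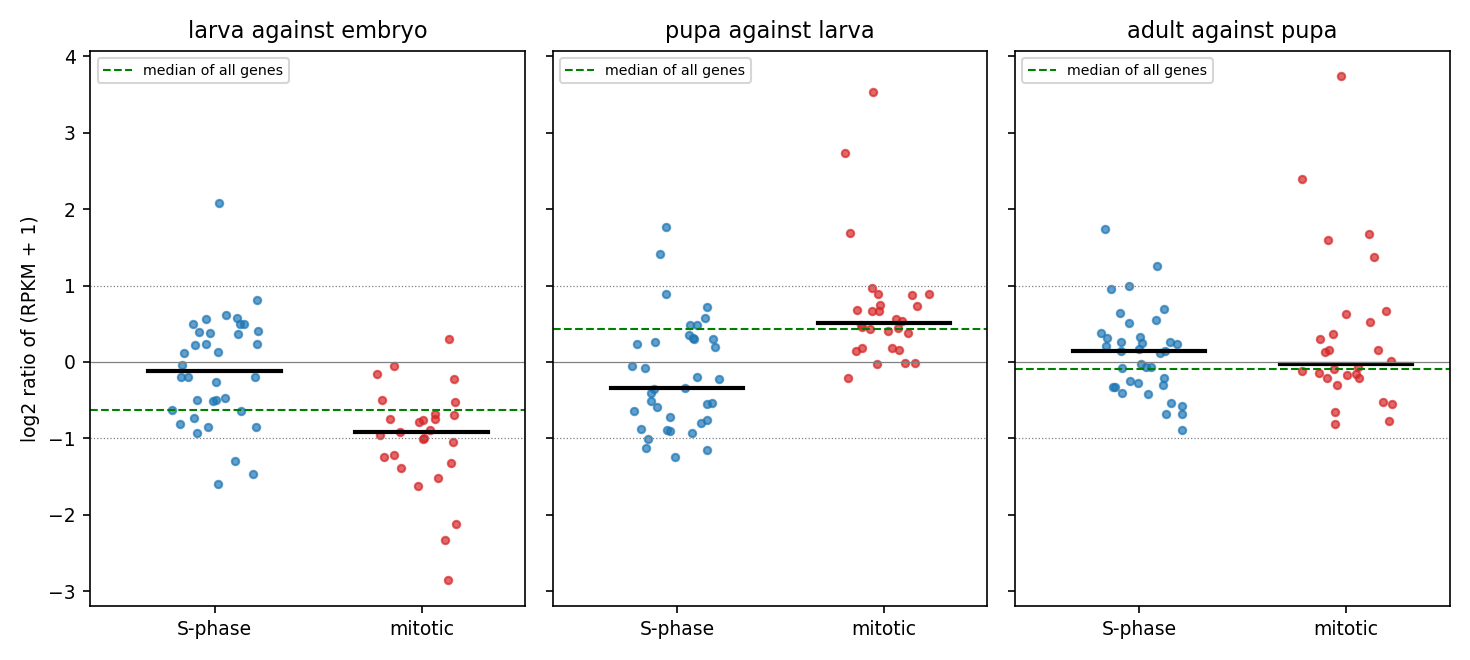
Log2 ratio of (RPKM + 1) at each consecutive step for the S-phase members (blue points) and the mitotic members (red points) that reached 1 RPKM in either library of the pair. Black bars are the medians of each set, the green dashed line is the median of all genes and dotted lines mark 2-fold. S-phase members lie around a median of -0.12 and mitotic members around -0.92 for larva against embryo, and the order is turned for pupa against larva.

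The highest library told the same members apart. Of the 37 S-phase members 16 had their highest RPKM in embryos, 16 in larvae, 0 in pupae and 5 in adults. Over all genes with at least 1 RPKM somewhere, 42.0% were highest in embryos, 15.7% in larvae, 16.9% in pupae and 25.4% in adults, so the share of S-phase members highest in the larva, 43.2%, lay above that background. Of the 28 mitotic members 17 were highest in embryos, 0 in larvae, 2 in pupae and 9 in adults, and 19 were lowest in the larva, or 14 after rescaling, where 41.5% and 25.4% of all genes were. After median-ratio rescaling 24 S-phase members and 4 mitotic members were highest in the larva, beside 26.1% of all genes. On that scale 4 S-phase and 7 mitotic members were highest in the embryo, beside 28.9% of all genes, and 8 and 15 in the adult, beside 29.1%.

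**Figure D2:**
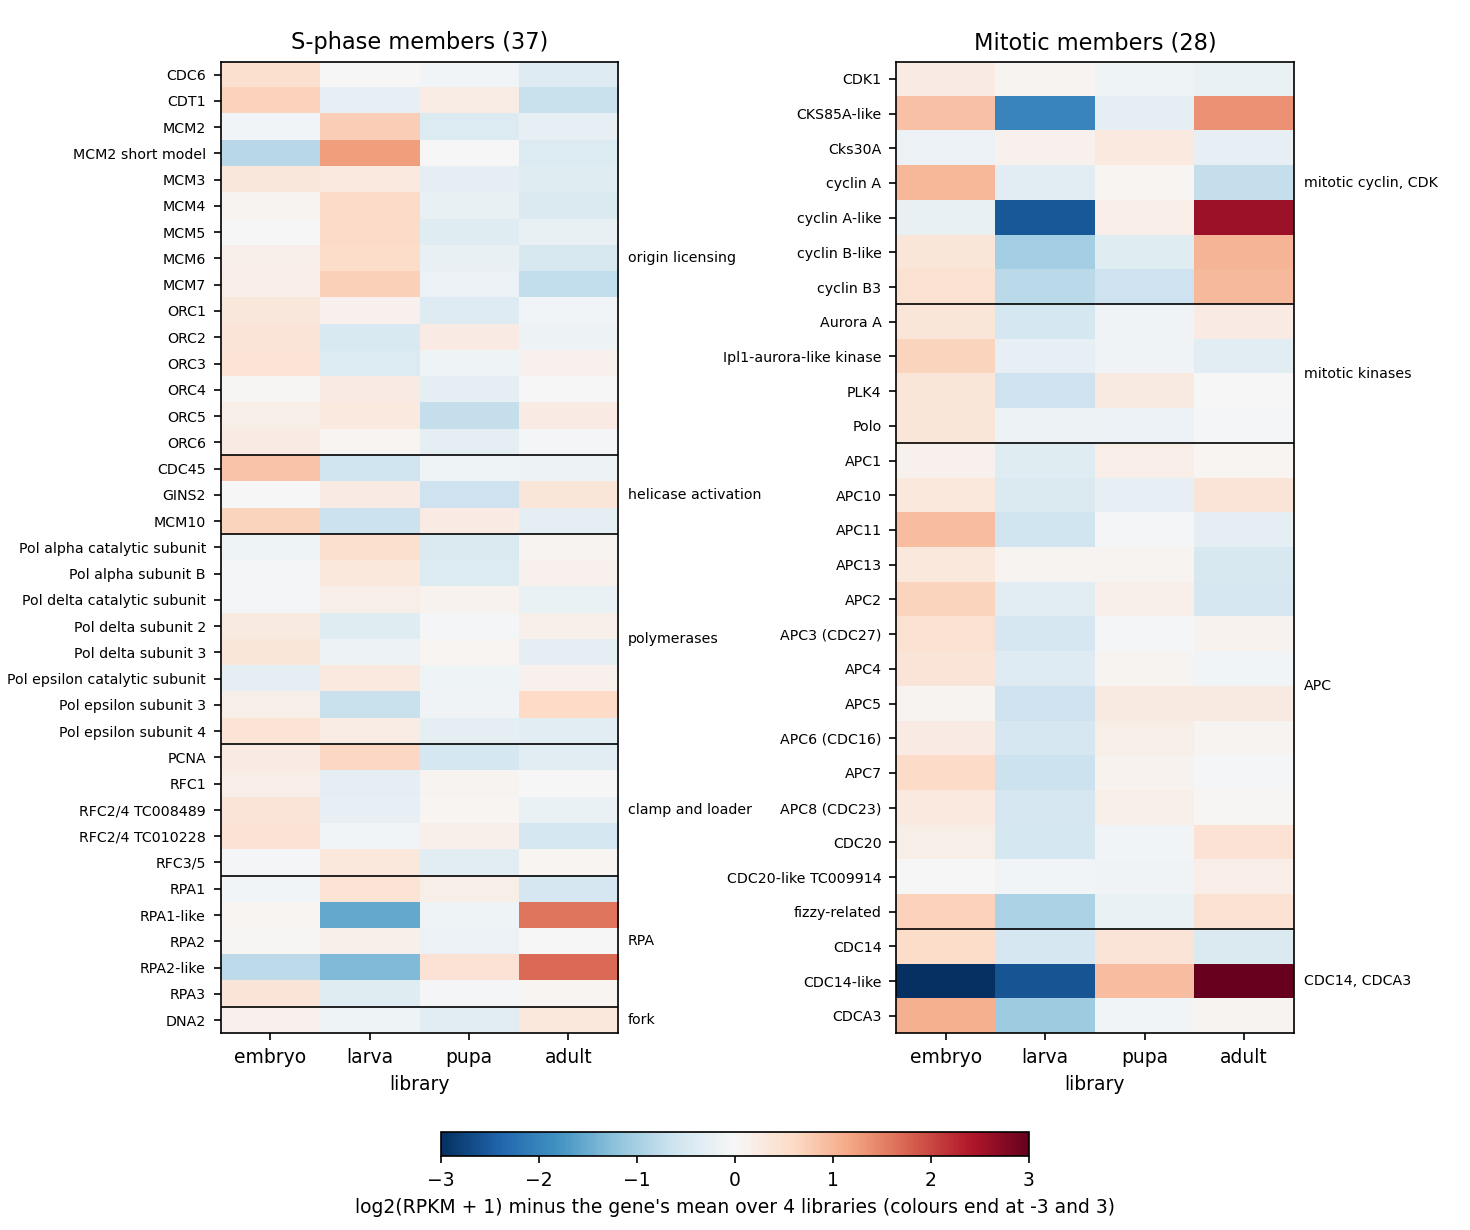
Levels of the 37 S-phase members (left) and the 28 mitotic members (right) in the 4 libraries, as log2(RPKM + 1) minus the mean of the same gene over the libraries, ordered by role. Red is above and blue below that mean. MCM2 to MCM7 and PCNA are reddest in the larva, except MCM3, while most APC subunits and the mitotic cyclins are blue there. The 5 genes with a deep red adult cell are RPA1-like, RPA2-like, cyclin A-like, CKS85A-like and CDC14-like.

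The replicative helicase stood highest in the larva. MCM2 (TC011437) had 14.0 RPKM in embryos, 25.2 in larvae, 11.0 in pupae and 12.2 in adults. MCM7 (TC013713) had 24.5, 35.1, 18.7 and 12.2 RPKM in the same order, and MCM5 (TC009146) 16.9, 25.5, 12.9 and 14.4. In each of these genes the larva was above the other 3 libraries. MCM4 (TC009571) with 20.4, 29.3, 16.4 and 14.0 RPKM and MCM6 (TC011200) with 18.6, 25.0, 14.3 and 11.8 RPKM were likewise highest in the larva. MCM3 (TC002088) was about level between embryo and larva, with 32.8, 31.9, 21.0 and 19.8 RPKM.

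Against the embryo, larval RPKM was 1.80-fold higher for MCM2 (1.39 to 2.35), 1.51-fold for MCM5 (1.20 to 1.90), 1.44-fold for MCM4 (1.18 to 1.75), 1.43-fold for MCM7 (1.18 to 1.74) and 1.34-fold for MCM6 (1.08 to 1.67). For MCM3 the embryo was 1.03-fold higher, with an interval of 0.862 to 1.23 that spans equality, and the larva was higher after rescaling. All 6 were higher in the larva than in the pupa, by 1.52-fold for MCM3 to 2.30-fold for MCM2 (1.76 to 3.03). Pupal and adult levels of MCM2 to MCM6 lay within counting error of each other, and MCM7 was 1.54-fold higher in the pupa (1.16 to 2.04). These values rest on 75 to 277 reads per gene and library. A short second model of MCM2 (TC005192), with 5 to 31 reads, had 2.35, 13.2, 4.97 and 3.45 RPKM and was also highest in the larva, 5.62-fold above the embryo (2.17 to 18.5).

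Of the origin recognition complex, which marks the origins and recruits the helicase, 2 of 6 subunits were highest in the larva in RPKM and 4 after rescaling. ORC2 (TC000631), with 15.1, 7.98, 13.7 and 10.1 RPKM, and ORC3 (TC013076), with 23.7, 13.0, 15.9 and 19.2 RPKM, were both higher in the embryo than in the larva, by 1.90-fold (1.29 to 2.83) and 1.81-fold (1.40 to 2.36). ORC1, ORC4, ORC5 and ORC6 (TC008879, TC009879, TC012706, TC009250) were lowest in the pupa, and their embryo and larva lay within counting error of each other. ORC5, the weakest of the complex, had 9.08, 9.97, 4.43 and 9.54 RPKM on 21 to 46 reads. After rescaling ORC1, ORC4, ORC5 and ORC6 were highest in the larva, ORC2 in the pupa and ORC3 in the adult.

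The loading factors CDC6 and CDT1 were highest in the embryo and lowest in the adult, although CDC6 was higher in the larva than in the embryo after rescaling. CDT1 (TC003416) had 43.2 RPKM in embryos, 22.1 in larvae, 31.4 in pupae and 16.4 in adults, and CDC6 (TC013003) had 15.2, 10.5, 10.01 and 7.80. The embryo exceeded the adult by 2.63-fold for CDT1 (2.05 to 3.39) and by 1.95-fold for CDC6 (1.31 to 2.96). CDT1 thus differed from its loading target, the helicase: its larval RPKM was 1.96-fold below the embryo (1.58 to 2.43).

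The activators of the helicase differed among themselves. CDC45 (TC015858), the co-factor that opens the loaded ring, had 35.8, 12.3, 17.6 and 17.3 RPKM, and was 2.92-fold higher in the embryo than in the larva (2.22 to 3.87). MCM10 (TC011513), which binds the activated helicase, had 39.1, 15.3, 29.2 and 19.9 RPKM, but its model also matches an F-box protein and at most 30.4% of it was covered by reads, so its level is uncertain. GINS2 (TC012816) had 18.9, 22.4, 11.7 and 24.1 RPKM on 23 to 43 reads, highest in the adult, or in the larva after rescaling, and lowest in the pupa. Other GINS subunits, which the rule does not name and which are named here after their values were seen, differed from it. In RPKM subunit 1 (TC016111) was highest in the pupa, subunit 3 (TC010104) in the embryo and subunit 4 (TC013396) in the larva.

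The catalytic subunits of the 3 replicative polymerases were all highest in the larva. Polymerase alpha (TC013712), which starts each new strand, had 7.67 RPKM in embryos, 12.3 in larvae, 6.06 in pupae and 9.06 in adults. Polymerase epsilon (TC009600), the leading-strand enzyme, had 4.69, 7.44, 5.34 and 6.55, and polymerase delta (TC004992), the lagging-strand enzyme, had 17.9, 21.3, 20.0 and 16.0. Larva exceeded embryo by 1.60-fold for alpha (1.25 to 2.05) and 1.59-fold for epsilon (1.23 to 2.05), and for delta by 1.19-fold with an interval of 0.977 to 1.45 that spans equality.

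Accessory polymerase subunits did not all follow their catalytic partners. Epsilon subunit 3 (TC004017), a small histone-fold protein, had the highest levels of the polymerase set, with 136, 74.9, 112 and 182 RPKM, highest in the adult and lowest in the larva. Epsilon subunit 4 (TC002314) had 64.4, 56.1, 39.2 and 37.5 RPKM. Alpha subunit B (TC005585), at 2.85, 3.97, 2.02 and 3.40 RPKM on 12 to 23 reads, was too weak to order the libraries. Delta subunits 2 and 3 (TC005539 and TC008556) were highest in the embryo, at 14.2 and 53.5 RPKM, but no member of the polymerase set was after rescaling.

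PCNA (TC008874), the ring that keeps polymerases on the DNA and a common marker of S phase, followed the helicase. It had 63.8 RPKM in embryos, 83.2 in larvae, 36.9 in pupae and 42.6 in adults. The larva was 1.30-fold above the embryo (1.06 to 1.60) and 2.26-fold above the pupa (1.79 to 2.87), and pupa and adult lay within counting error. Of replication factor C, which loads the ring, the subunit 3 or 5 gene (TC006622) was highest in the larva with 20.5, 27.3, 17.1 and 22.5 RPKM. The other 3 genes of the loader (TC008489, TC010228 and TC013927) were highest in the embryo, with 34.1, 67.5 and 32.5 RPKM there and 21.5, 47.2 and 23.2 in the larva. The lead of the embryo over the larva in these 3 turns, or falls to about equality, after rescaling.

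RPA1 (TC004405), the large subunit of the single-strand binding complex, had 46.0, 65.3, 55.8 and 34.3 RPKM, and the larva was 1.42-fold above the embryo (1.21 to 1.66). RPA2 (TC005650) stayed between 50.2 and 64.0 RPKM in all 4 libraries and was highest in the larva on either scale. RPA3 (TC012056) had 24.8, 14.5, 18.0 and 19.6 RPKM on 18 to 28 reads, with embryo and larva within counting error. DNA2 (TC000140), a nuclease that trims lagging-strand ends, had 8.87, 7.23, 6.17 and 10.2 RPKM. Other genes annotated as RPA1 and RPA2 had a different pattern, given below with the genes high in the adult.

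**Figure D3:**
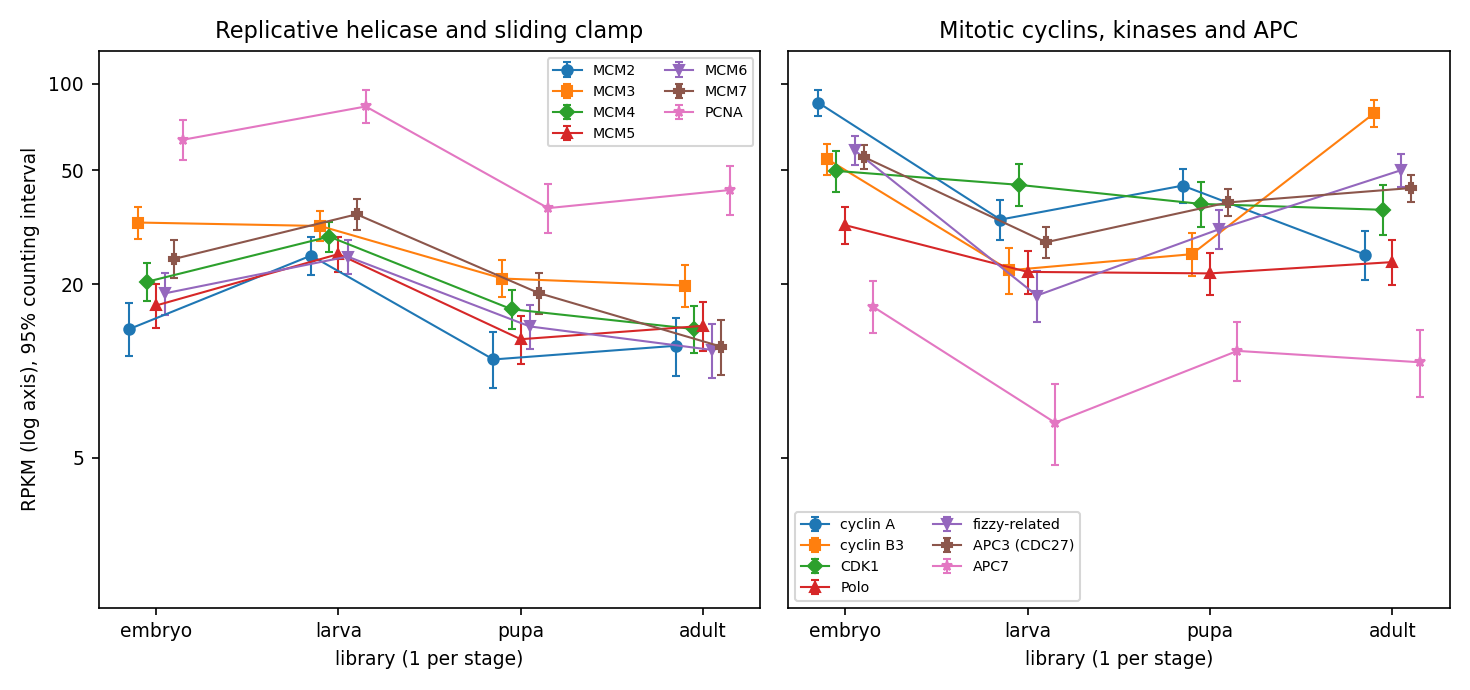
RPKM of MCM2 to MCM7 and PCNA (left) and of 7 mitotic regulators (right) in the 4 libraries, on a log axis. Points are single libraries, bars are 95% counting intervals, and points of 1 library are set apart sideways for legibility. On the left the larval points are highest for each gene but MCM3. On the right cyclin A, cyclin B3, fizzy-related, APC3 and APC7 dip in the larva, while CDK1 and Polo differ less in RPKM.

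Cyclins A and B3 and the cyclin B-like gene were lower in the larva than in the embryo. Cyclin A (TC007193), which acts in S phase and at mitotic entry, had 85.9 RPKM in embryos, 33.6 in larvae, 44.1 in pupae and 25.4 in adults. Cyclin B3 (TC013167), needed for anaphase in Drosophila, had 54.6, 22.4, 25.5 and 78.8, and the gene called cyclin B-like here (TC014544) had 45.7, 16.9, 27.4 and 72.7. Cyclin A was thus highest in the embryo and lowest in the adult, and the B-type genes were highest in the adult. Larva and pupa lay within counting error for cyclin B3, whose lowest library was the larva in RPKM and the pupa after rescaling. The best KEGG match of TC014544 is a poly(ADP-ribose) polymerase and cyclin B comes next, so its identity is uncertain.

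The embryo was above the larva by 2.55-fold for cyclin A (2.11 to 3.10), 2.44-fold for cyclin B3 (1.95 to 3.05) and 2.71-fold for the cyclin B-like gene (2.05 to 3.62). From pupa to adult cyclin A was 1.74-fold lower (1.37 to 2.22), while cyclin B3 was 3.09-fold higher (2.53 to 3.79) and the cyclin B-like gene 2.66-fold higher (2.14 to 3.32). CDK1 (TC030613), the kinase that these cyclins activate, had 49.7, 44.4, 38.1 and 36.4 RPKM. Embryo and larva, larva and pupa, and pupa and adult each lay within counting error for CDK1, and the embryo was 1.37-fold above the adult (1.05 to 1.78). After rescaling CDK1 was highest in the larva and lowest in the pupa.

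All 4 mitotic kinase genes were highest in the embryo, a place that only 1 of them kept after rescaling. Aurora A (TC001817), which acts at spindle poles, had 15.3, 7.79, 10.7 and 14.0 RPKM. A gene annotated as an Ipl1-aurora-like kinase (TC001943) had 32.7, 16.8, 18.7 and 16.0. Polo (TC014023), which acts throughout mitosis, had 32.1, 22.1, 21.9 and 23.9, and PLK4 (TC001032), which starts centriole duplication, had 40.9, 20.0, 38.1 and 30.9. The embryo was above the larva by 2.04-fold for PLK4 (1.67 to 2.50), 1.96-fold for Aurora A (1.20 to 3.27), 1.95-fold for the Ipl1-aurora-like kinase (1.39 to 2.76) and 1.45-fold for Polo (1.16 to 1.83). The lead of the embryo in Polo turns after rescaling, and the other leads over the larva shrink. On that scale embryo and larva stood at 15.3 and 12.2 for Aurora A and at 32.7 and 26.2 for the Ipl1-aurora-like kinase. PLK4 stood at 40.9 and 31.2.

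The APC, the ubiquitin ligase that ends mitosis, was lower in the larva than in the embryo in all 11 subunit genes found, and in 9 of 11 after rescaling. Of all genes tested 8406 of 12179 were lower too, and 6134 of 12183 after rescaling. The median log2 ratio of the complex with its activators was -0.75, near the -0.62 of all genes. APC11 (TC007457), its catalytic RING subunit, had 76.5 RPKM in embryos, 26.0 in larvae, 38.0 in pupae and 32.7 in adults. APC7 (TC011772), a scaffold subunit, had 16.8, 6.61, 11.7 and 10.7, and APC2 (TC002887), the cullin subunit, had 40.4, 19.6, 27.9 and 17.3. The embryo was above the larva by 2.94-fold for APC11 (1.81 to 4.92), 2.54-fold for APC7 (1.73 to 3.77) and 2.06-fold for APC2 (1.69 to 2.51). The smallest difference in RPKM was in APC13 (TC013251), the most abundant subunit, with 148, 126, 125 and 85.2 RPKM and an embryo 1.17-fold above the larva (1.02 to 1.34). This lead turns after rescaling, where APC13 was highest in the larva, at 197 beside 148 in the embryo. APC1 also turns, at 11.8 in the larva beside 11.0 in the embryo.

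The larva was the lowest library for 9 of the 11 subunits, 7 after rescaling, beside 41.5% and 25.4% of all genes. The adult was lowest for APC2 and APC13. The embryo was highest for 8, the pupa for APC1 (TC001072) at 11.6 RPKM, and the adult for APC5 (TC001292) and APC10 (TC007130) at 20.4 and 15.7 RPKM, each of these 3 within counting error of the next library. After rescaling, 4 of the 14 genes of the complex and its activators were highest in the embryo and 9 in the adult. Pupal levels of 10 subunits were above larval ones, and 9 were after rescaling. Of all genes tested 8499 of 12280 were, and 6148 of 12334 after rescaling. Of the activators that bring substrates to the complex, CDC20 (TC001383) had 19.8, 11.8, 16.2 and 23.7 RPKM. Fizzy-related (TC001036), the activator that in Drosophila is needed for cells to enter endocycles, had 58.6, 18.3, 31.1 and 50.0 RPKM. It was 3.20-fold higher in the embryo than in the larva (2.53 to 4.09).

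CDCA3 (TC014259), a protein that in vertebrates aids mitotic entry, had the largest embryo-to-larva difference among mitotic members with over 30 reads in both libraries. It had 43.5 RPKM in embryos, 9.24 in larvae, 19.1 in pupae and 21.4 in adults, 4.71-fold higher in the embryo than in the larva (3.21 to 7.11).

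Ratios within a library do not depend on the scaling between libraries. Summed RPKM of the 37 S-phase members over that of the 28 mitotic members was 0.986 in embryos (0.939 to 1.04), 1.60 in larvae (1.51 to 1.69), 1.04 in pupae (0.984 to 1.09) and 0.790 in adults (0.750 to 0.834). The larva stood above the other 3 libraries beyond counting error and the adult below them. Without the 5 genes that were high in the adult, chosen after their values were seen, the ratios were 0.989, 1.60, 1.06 and 1.08, so the low adult value rested on these genes and the high larval value did not. The 5 genes did not weigh equally: CDC14-like alone gave 255 of the 1118 RPKM summed over mitotic members in the adult. The ratio of the median S-phase to the median mitotic RPKM was 0.640, 1.33, 0.779 and 0.691.

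The helicase and the origin complex were each set against the APC. MCM2 to MCM7 over the 11 APC subunits gave 0.288 in embryos (0.264 to 0.314), 0.641 in larvae (0.589 to 0.698), 0.278 in pupae (0.254 to 0.304) and 0.295 in adults (0.265 to 0.328). ORC1 to ORC6 over the APC gave 0.243, 0.324, 0.219 and 0.309, where larva (0.286 to 0.366) and adult (0.272 to 0.352) overlapped. Both ratios had their highest value in the larva. APC13 alone gave 126 of the 268 RPKM summed over the APC in the larva and 85.2 of 286 in the adult. The median ORC over the median APC subunit was 0.769, 1.15, 0.606 and 0.703, with the larva further above the adult. MCM2 to MCM7 over ORC1 to ORC6 gave 1.19 in embryos (1.06 to 1.33), 1.98 in larvae (1.76 to 2.23), 1.27 in pupae (1.12 to 1.45) and 0.953 in adults (0.832 to 1.09). The larval ratio of helicase to origin complex was the highest, and its interval overlapped none of the other 3.

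**Figure D4:**
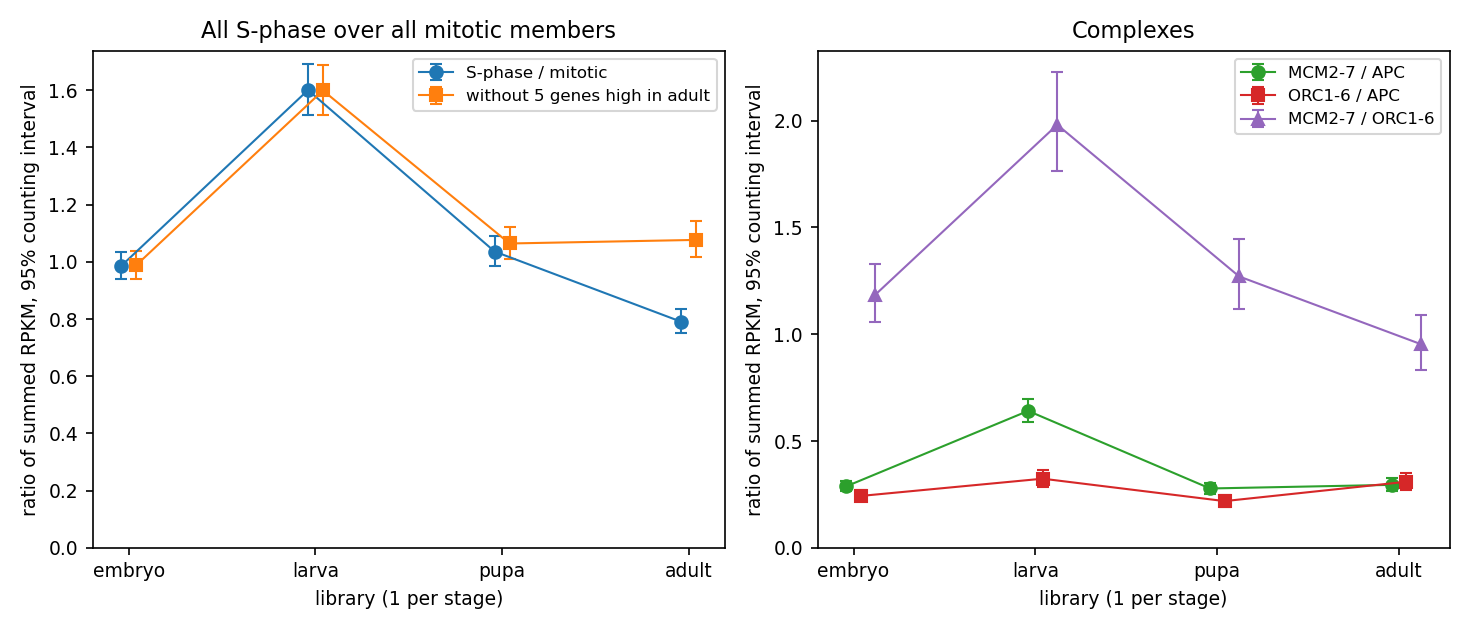
Ratios of summed RPKM within each library: all S-phase over all mitotic members, with and without the 5 genes high in the adult (left), and MCM2-7 over APC, ORC1-6 over APC and MCM2-7 over ORC1-6 (right). Bars are 95% counting intervals and the axes start at 0. The larva is highest for the S-phase over mitotic ratio, at 1.60, and for both helicase ratios, at 0.641 and 1.98.

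A handful of members were second genes of a family and had their highest RPKM in the adult. Cyclin A-like (TC005609) had 10.5 RPKM in embryos, 1.28 in larvae, 14.2 in pupae and 79.1 in adults, where cyclin A itself was at its lowest. CDC14-like (TC008603), related to the phosphatase that in yeast drives mitotic exit, had 0.241, 0.656, 18.1 and 255 RPKM on 1, 3, 85 and 1006 reads. RPA1-like (TC011844) had 13.8, 3.92, 12.1 and 42.5 RPKM. All 3 were higher in the adult than in the pupa, by 5.55-fold for cyclin A-like (4.16 to 7.53), 14.1-fold for CDC14-like (11.3 to 17.8) and 3.53-fold for RPA1-like (2.72 to 4.61).

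The 2 weakest genes of this kind were absent from the larval table. RPA2-like (TC015098) had 1, 0, 6 and 15 reads, or 0.451, 0, 2.39 and 7.11 RPKM. Its adult level was 5.79-fold higher than in the larva when 3 reads are set for the larva. CKS85A-like (TC008319), a small CDK-binding protein, had 5, 0, 2 and 7 reads, and its adult level was 2.70-fold higher than in the larva by the same floor. Both ratios leave out the counting error of the adult reads. With so few reads the adult and embryonic levels of CKS85A-like could not be told apart. Their counterparts differed far less. CDC14 (TC001964), named for this comparison after its values were seen, had 95.4, 45.5, 84.9 and 47.9 RPKM, Cks30A (TC010047), named likewise, had 11.1, 13.9, 15.5 and 10.4, and RPA2 lay between 50.2 and 64.0. In the adult cyclin A-like stood above cyclin A and CDC14-like above CDC14, RPA1-like at 42.5 RPKM was near RPA1 at 34.3, and RPA2-like stayed below RPA2.

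**Figure D5:**
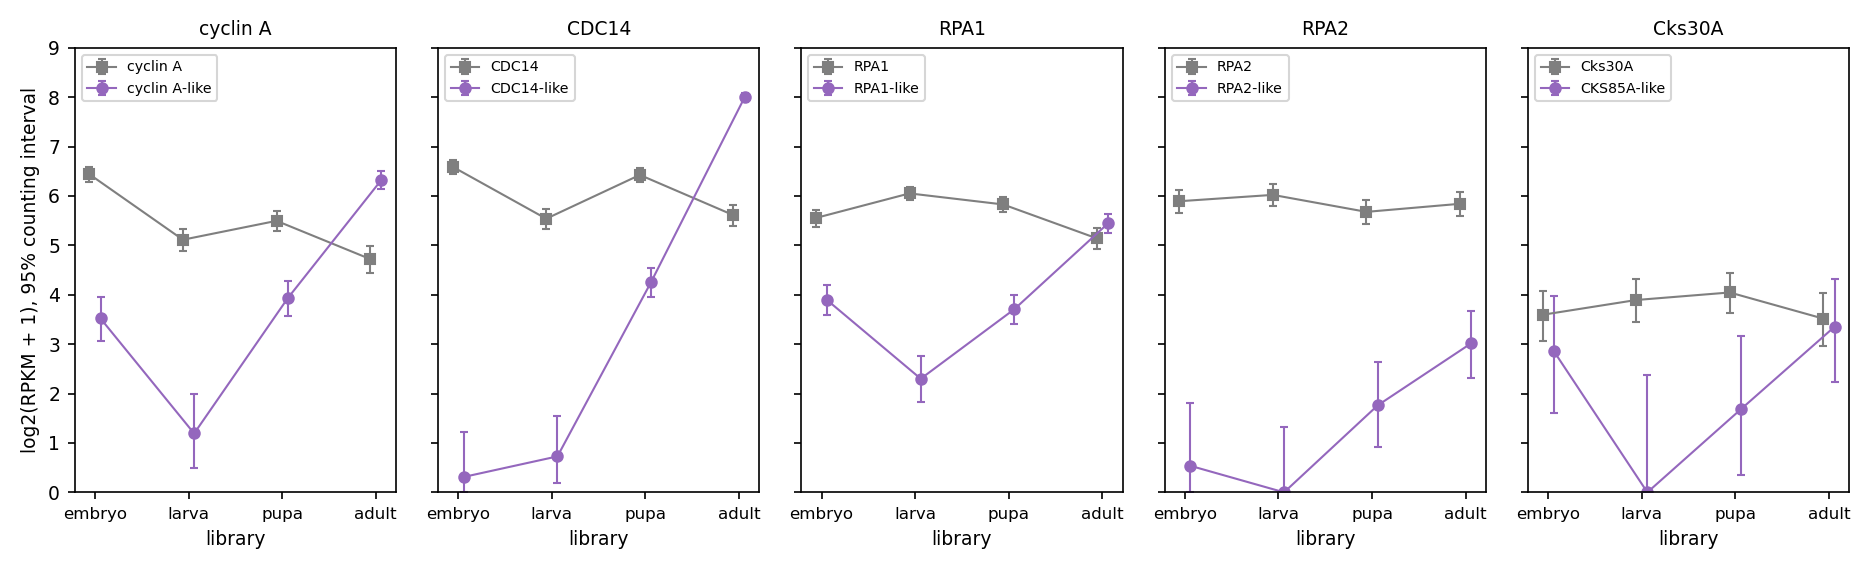
Log2(RPKM + 1) of 5 members (purple circles) and of the gene with the same annotation (grey squares) in the 4 libraries. Bars are 95% counting intervals and a point at 0 is a gene with 0 reads. Each purple line has its highest point in the adult and its lowest in the larva or, for CDC14-like, in the embryo, while each grey line spans a smaller range.

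Most markers of testis and sperm were, like these genes, highest in the adult. The list held 21 genes, most of them annotated only as axonemal dynein heavy chains. Of these 21 genes 16 were highest in the adult, 3 in the pupa and 2 in the embryo. No reads were found for 3, 6, 0 and 0 of them in the embryo, larva, pupa and adult. Their summed RPKM was 197, 110, 243 and 865 in the same order. The dynein gene TC007515 had 173, 103, 175 and 125 RPKM and gave most of the sum in every library but the adult. The testis-specific serine kinases TC009447, TC010125 and TC007244 had 304, 135 and 71.4 RPKM in the adult, at most 15.0, 8.02 and 6.00 in the pupa and at most 1.07 in the embryo and larva. Tektin (TC005997), a protein of sperm tails, had 3.51, 0.187, 8.38 and 91.3 RPKM. Germline markers did not move in this way: the sum of vasa, nanos, piwi, argonaute 3, tudor and maelstrom was 320 in embryos, 320 in larvae, 389 in pupae and 306 in adults. Vitellogenin, the yolk protein that adult females make, was at 0.241 and 0.422 RPKM in the adult for its 2 genes, and both were highest in the larva, at 6.51 and 1.40 RPKM. The part of germ cells in the adult levels was not tested.

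Genes of the G1 phase, in which a cell commits to S phase, were mostly highest in the embryo. CDK2 (TC011046), the partner of cyclin E, had 33.6, 6.21, 11.2 and 7.89 RPKM, 5.41-fold higher in the embryo than in the larva (3.36 to 9.11). Cyclin D is spread over 2 models with few reads, TC007158 with 18.0, 3.26, 4.08 and 13.5 RPKM and TC007159 with 23.2, 3.28, 8.31 and 5.32, and both were over 5-fold higher in the embryo than in the larva. Cyclin D-like (TC008270) went the other way, with 24.5, 29.8, 36.9 and 5.27 RPKM, 7.00-fold lower in the adult than in the pupa (4.28 to 12.1).

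Cyclin E (TC001749), which drives entry into S phase and endocycles, had 69.4, 43.7, 54.1 and 45.7 RPKM. It was 1.59-fold higher in the embryo than in the larva (1.44 to 1.76), a lead that nearly vanishes on rescaling, and its model also matches an enzyme of membrane anchor synthesis, so that reads of both are summed. Cyclin G (TC001982), the most abundant of the class, had 290, 263, 201 and 221 RPKM. Of the 7 genes of the class 6 were highest in the embryo, 4 after rescaling, beside 42.0% and 28.9% of all genes. At least 2-fold more RNA in the embryo than in the larva was found for 4 of them, beside 34.2% of all genes.

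Members that are not part of the chromosomal replication fork or of mitosis also stood highest in the embryo in most cases, beside 42.0% of all genes, or 28.9% after rescaling. Of 12 cyclins and kinases that act on RNA polymerase II or in splicing, 10 were highest in the embryo, 8 after rescaling. Lowest in the larva were 8, or 5 after rescaling, beside 41.5% and 25.4% of all genes. CDK12 (TC011738) was the most abundant with 129, 60.6, 90.0 and 84.3 RPKM, a copy of CDK11 (TC012583) had 71.3, 24.4, 38.3 and 27.6, and CDK7 (TC003871), the CDK-activating kinase, was highest in the adult with 11.5, 7.42, 13.9 and 22.9. CDK7 was 3.09-fold higher in the adult than in the larva (1.96 to 5.00).

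Of 6 other cyclin-dependent kinases and partners, 5 were highest in the embryo, and 3 were after rescaling. The activator of CDK5 (TC005715), a kinase of neurons, had 107 RPKM in the embryo and 4.79, 10.7 and 8.71 in the larva, pupa and adult, 22.4-fold higher in the embryo than in the larva (14.4 to 36.5). The CDK-like kinase TC005369 had 23.5, 2.10, 7.72 and 22.7, with embryo and adult within counting error and both over 10-fold above the larva. The CDK-like kinase TC009252 was the adult-high gene of the class, with 5.63, 6.98, 6.54 and 48.6 RPKM, 7.43-fold above the pupa (4.85 to 11.8).

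All 10 repair, mitochondrial and MCM-related members were lowest in the larva in RPKM, but only 4 were after rescaling, beside 41.5% and 25.4% of all genes. Polymerase zeta (TC004938), which copies past damaged bases, had 12.9, 4.23, 10.1 and 8.53 RPKM, 3.05-fold higher in the embryo than in the larva (2.31 to 4.08). DNA polymerase beta (TC015815), a base excision repair enzyme, was by far the most abundant in the adult with 8.93, 4.14, 18.0 and 128 RPKM. Its name is uncertain, since 11 members share a KEGG match to polymerase beta, among them a putative allergen, and all 11 were highest in the adult.

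Genes of the same pathways that the rule does not name were set beside the members. Of 21 further S-phase genes 8 were highest in embryos, 7 in larvae, 3 in pupae and 3 in adults, and their median log2 ratio was -0.38 from embryo to larva, -0.04 from larva to pupa and 0.06 from pupa to adult, beside -0.62, 0.43 and -0.09 over all genes. After rescaling 4, 11, 2 and 4 were highest in the 4 stages. None of the 20 tested was at least 2-fold higher in the larva than in the embryo and 6, or 30.0%, were lower, beside 34.2% of all genes. The most abundant was DNA topoisomerase I (TC010428), which relieves twist ahead of the fork, with 510, 164, 350 and 303 RPKM. The most changed were the gene annotated as timeless (TC013997), with 6.86, 2.10, 34.4 and 152 RPKM, and a thymidylate synthase (TC004238), with 0.982, 0.890, 4.62 and 23.7. Timeless shares its best KEGG match with a gene named timeout (TC000593), so its place among S-phase genes is uncertain. Timeout, named after its values were seen, had 2.78, 5.42, 0.578 and 2.24 RPKM, highest in the larva. The larva-high genes among the 21 included both models of the large subunit of ribonucleotide reductase, named after their values were seen, with 20.6 and 25.7 RPKM in the larva and 14.2 and 18.8 in the embryo. In RPKM the 2 genes of its small subunit (TC013940 and TC014831) went the other way, with 45.7 and 1.27 RPKM in the larva and 57.3 and 4.45 in the embryo. The lead of the embryo in TC013940 turns after rescaling, and TC014831 rests on 19 reads in the embryo and 6 in the larva.

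Of 26 further genes of mitosis, such as condensins, cohesins, spindle kinesins and checkpoint proteins, 18 were highest in embryos, 0 in larvae, 2 in pupae and 6 in adults. The share highest in the embryo was 69.2% beside 42.0% of all genes, and after rescaling 11 were highest there. Their median log2 ratio was -0.74 from embryo to larva, 0.59 from larva to pupa and -0.28 from pupa to adult. Between embryo and larva 10 of 26, or 38.5%, were at least 2-fold lower in the latter and 0 higher, where 34.2% of all genes were lower and 18.6% higher. The most abundant was the cohesin subunit SMC1 (TC005672), which holds sister chromatids together, with 298, 120, 232 and 104 RPKM. A pavarotti gene (TC010949), a kinesin of cytokinesis, was among the weakest and most changed, with 1.84, 0.152, 0.443 and 1.94 RPKM on 11, 1, 3 and 11 reads. The other pavarotti gene (TC013058), named after its values were seen, had 19.1, 19.5, 19.6 and 74.4 RPKM and was not lower in the larva.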

How the data were processed

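Polyadenylated RNA was isolated with TRIzol and oligo(dT), primed with random hexamers and sequenced on an Illumina Genome Analyzer, per the labels' protocols, with no step that marks the strand, so antisense reads cannot be told apart. SAMtools 0.1.19, BSMAP 2.73 and CASAVA 1.8.2 are named in the submitters' processing notes. For the RNA data the aligner, counter, build and gene models were not given in the sources used here. Coordinates are therefore left out. Unique reads were counted per gene model by the authors, per the file headers. The authors deposited RPKM values beside these counts, and the percent coverage of the model. Unique counting makes near-identical copies uncertain. Genes absent from a table were taken as 0 reads. The 4 bisulfite libraries were not analysed here.

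Roles were assigned by hand from the names in the tables, and 75 of the 100 role members also had a RefSeq symbol (assembly icTriCast1.1, used for names only). The members, roles and lists were chosen with earlier results of these data known. Libraries were compared as log2 of the ratio of (RPKM + 1), which understates differences of weak genes, among genes that reached 1 RPKM in either library of a pair, and from 2-fold on. Fold values are ratios of RPKM with 95% intervals from an exact conditional binomial test of the read counts, those of summed RPKM used a Poisson approximation, and both cover counting error only. A library with 0 reads was given a floor of 3 reads.

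Genes named in core replication and mitotic classes could be any member. In other classes these were the most abundant, the 2 most changed, those absent from a library and those at least 4-fold apart at a step that reached 5 RPKM in either library. Beside germline and testis markers, the most abundant and most changed of each list of further genes could be named. The alternatives were a pseudocount of 0.1, median-ratio rescaling, no filter or one of 5 RPKM, totals without the top 20 genes of every library (53 in all), intervals beyond 2-fold, the protein description alone and members with a role alone. The tools were matplotlib 3.10.9, scipy 1.17.1, pandas 2.3.3 and numpy 2.4.6 in Python 3.11.15, and the steps were tested on simulated data.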

Additional observations from a re-analysis of the deposited data

How the results depend on the processing

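The 18 counts of members at least 2-fold higher or lower at a step were recomputed under 9 settings, of which leaving out the 4 models that hold a second protein was chosen after seeing the data and moved none of them by over 1.5 times, as did dropping the filter. Median-ratio rescaling moved 9. From embryo to larva it gave 11 S-phase members higher in place of 1, 1 lower in place of 3, 4 mitotic members lower in place of 11, and 17 of all members higher and 31 lower in place of 5 and 71. From larva to pupa it gave 13 S-phase members lower in place of 4, and 19 of all members higher and 19 lower in place of 30 and 7, and from pupa to adult 4 S-phase members higher in place of 2. Leaving the most abundant genes out of the totals gave, in the same order, 2 S-phase members higher and 7 mitotic members lower, then 9 S-phase members and 14 of all members lower, then 4 S-phase members higher. Requiring the interval to lie beyond 2-fold gave 5 mitotic members and 41 of all members lower in the larva, 0 S-phase members higher and 0 lower with 16 of all members higher and 2 lower in the pupa, and 1 S-phase member higher with 23 of all members higher and 6 lower in the adult. The protein description alone, which holds 18 S-phase and 8 mitotic members, gave 0 S-phase members higher and 1 lower, 5 mitotic members lower and 0 of all members higher and 10 lower in the larva, 0 S-phase members higher and 1 lower with 5 of all members higher and 1 lower in the pupa, and 0 S-phase and 3 mitotic members higher with 4 of all members higher and 0 lower in the adult. Role members alone gave 1 higher and 31 lower, 11 and 4, and 11 and 3 at the 3 steps. A pseudocount of 0.1 gave 4 S-phase members higher in the adult, and a filter of 5 RPKM gave 1 higher in the pupa. For the settings that change the set of genes or the threshold the smaller counts follow from fewer genes or a stricter call. Rescaling and the changed totals multiply every RPKM ratio of a step by a common factor, from embryo to larva 1.56 and 1.21. This shifts members across the 2-fold line. For the pseudocount the cause was not tested. No paired analysis was possible because each stage has 1 library. Genes with few reads have wide intervals, and for CKS85A-like and APC10 the embryo and the adult could not be told apart at this depth.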

Other observations

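Among the 191 members with no role by name, the rule gathered genes that share a database entry and not a function. A vasopressin receptor entry was listed for 91 of them, of which 43 were below 1 RPKM in every library, and 8 were named as polyproteins, reverse transcriptases or other parts of mobile elements. The most abundant was a gene named as a protein kinase C inhibitor (TC008663), whose best KEGG match is CDK4, with 617, 313, 469 and 367 RPKM in the embryo, larva, pupa and adult. The most abundant in the group matched by lower hits alone was a gene with an arylsulfatase match (TC002443), with 332, 69.0, 101 and 91.2 RPKM.

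Some genes that share the polymerase beta entry had wide ranges across the libraries. Besides the gene given in the report, 10 had between 0 and 1.78 RPKM in the embryo, between 0 and 0.917 in the larva, between 0.578 and 41.7 in the pupa and between 5.09 and 497 in the adult. TC014433 had 0.996, 0.361, 41.7 and 497 RPKM, and TC015814, named as a putative allergen, had 0.972, 0.882, 41.2 and 455. Weak matches to a CDC20-like protein were found in TC015707, with 2.31, 43.6, 39.1 and 6.47 RPKM, and in TC015370, named as a glycosyl hydrolase of family 9, with 6.38, 19.8, 15.5 and 58.9.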
